A study of Mus musculus with 62 samples.

Results

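The 50 genes described here act in mitosis and cytokinesis, and were taken from a list of gene symbols grouped by role. A gene counted as measured where the array's annotation gave a probe cluster exactly 1 symbol equal to a listed gene, and the brightest such cluster stood for the gene. By that rule 45 of the 50 were measured, of 14824 genes with a cluster of their own among 16715 clusters. Ccnb1, Cenpf and Ncapg had no such cluster, Foxm1 shared its cluster with another symbol, and Sgol1 was listed under its current symbol Sgo1 and is given apart.

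RNA came from whole lung (the right lower lobe) of male mice of the inbred strains BALB/cJ and C57BL/6J, whose ages the labels did not give, and was measured on Affymetrix Mouse Exon 1.0 ST arrays. Every mouse, controls included, had been sensitised on days 1 and 8, each time with 10 µg of the house dust mite allergen Der p 1 by intraperitoneal injection. Treated mice then received 50 µg Der p 1 on day 15 and Control mice received PBS, and lungs were taken on day 18, 72 hours later. There were 14 BALB/cJ Treated, 11 BALB/cJ Control, 12 C57BL/6J Treated and 11 C57BL/6J Control mice, 48 in all on 62 arrays, since 7 mice had 3 arrays each.

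Mitosis is driven by cyclin-dependent kinases and by the Polo and Aurora kinases, under which chromosomes condense and the spindle forms, while a checkpoint delays the separation of sister chromatids until all are attached. The anaphase-promoting complex then marks securin and the mitotic cyclins for destruction, and a ring of actin and myosin divides the cell. Most of these genes are switched on together late in the cell cycle, when complexes built on the MuvB core bind a short promoter element called the cell cycle genes homology region (CHR). In a resting adult lung few cells divide.

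Values are log2 signals, and a difference is Treated minus Control on that scale unless stated otherwise. A gene was called higher or lower where its p, adjusted over all 16715 clusters in a limma fit of all 4 groups, was under 0.05. Counts at an unadjusted p under 0.05 are given without the share over all clusters, and no result is read from them. Because whole lung was measured, a larger number of dividing cells and more of these RNAs per cell cannot be told apart.

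A pair of BALB/cJ mice went against their labels. The Treated mouse634 lay below every other BALB/cJ Treated mouse for 33 of the 45 genes, and the Control mouse633 lay above every other BALB/cJ Control mouse for 45. The mean of the 45 genes was 5.33 in mouse634 and 6.67 in mouse633, against 5.07 to 5.38 in the other BALB/cJ Control mice. Clca1, a secreted airway protein that is no mitosis gene, moved the same way, at 6.43 in mouse634 and 12.6 in mouse633. It lay at 10.1 to 12.6 in the other Treated and at 5.12 to 7.74 in the other Control mice of the strain. Clca1 was also high in some C57BL/6J Control mice, at 10.6 to 12.7 in mouse643, mouse644, mouse645 and mouse655. Mouse633 and mouse634 were kept, and BALB/cJ counts of called genes, with the values that these mice move most, are also given without them. Since both stand apart in these same 45 genes, leaving them out favours larger BALB/cJ differences, more calls and less overlap among these genes. Values without them are therefore no independent support.

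The mean of the 45 genes ran from 5.33 over a median of 6.12 to 6.995 in BALB/cJ Treated mice, and from 5.07 over 5.20 to 6.67 in BALB/cJ Control mice. It ran from 5.65 over 6.38 to 7.03 in C57BL/6J Treated mice, and from 5.11 over 5.29 to 5.80 in C57BL/6J Control mice. Every Treated mouse of both strains lay above the median of its own Control group. The highest C57BL/6J Control mouse, mouse643, lay above the lowest Treated mouse of its strain, and the other 10 Control mice lay below every Treated mouse.

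**Figure D1:**
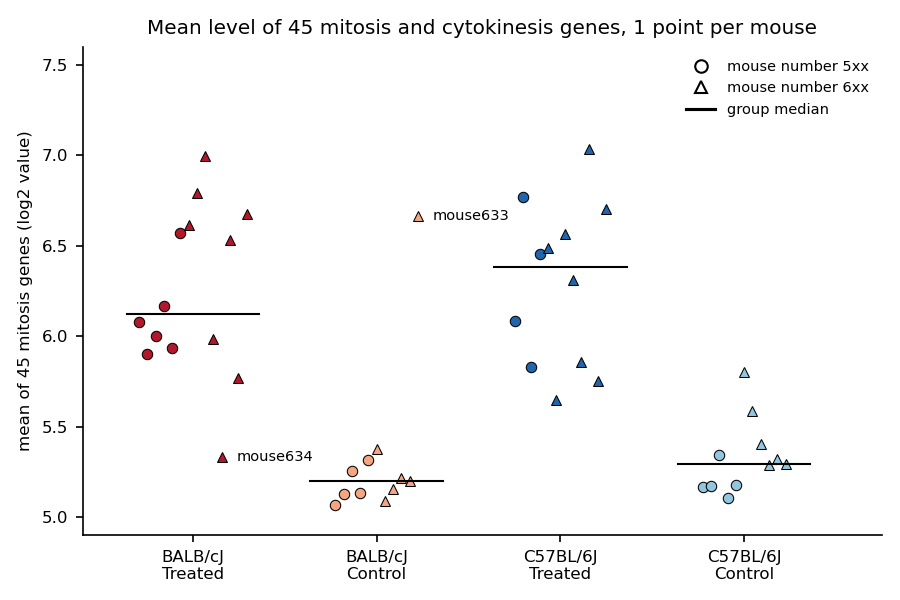
Mean log2 value of the 45 genes in each mouse (points, 1 per mouse), with the group median as a bar and the leading digit of the mouse number as the symbol. Treated mice of both strains lie above their Control medians, the Treated mouse634 stands beside the Control mice at 5.33 and the Control mouse633 among the Treated mice at 6.67.

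Most of the set was higher in Treated than in Control mice of both strains. In BALB/cJ lungs 39 of the 45 genes were higher and 0 lower, where 1.93% of all clusters were called and 1.7% were called higher. The median difference was 0.85 (range 0.35 to 1.82), against -0.03 over all clusters. Without mouse633 and mouse634, 44 of the 45 were higher (4.84% of all clusters were called and 3.32% higher) and the median was 1.04, and only Smc4 was not called. In C57BL/6J lungs 42 of the 45 were higher and 0 lower, where 18.8% of all clusters were called and 9.85% were called higher. The median there was 0.90 (range -0.19 to 1.84), against 0.07 over all clusters.

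The differences of the 2 strains ran in a similar order over the genes. Across the 45 genes they had a Pearson r of 0.796 and a Spearman rho of 0.723, given as a description since the genes share the arrays. Both differences were above 0 for 44 genes, and 37 were called higher in both strains. Leaving out mouse633 and mouse634 gave an r of 0.791 and a rho of 0.724, and 42 genes were called in both. The groups overlapped for every gene in BALB/cJ when all mice were kept (0% of clusters did not overlap). Without mouse633 and mouse634 every Treated mouse lay above every Control mouse for 20 of the 45 genes, where 0.389% of all clusters did. In C57BL/6J mice this held for Cdca3, Bub1b and Aurkb, where 0.0419% of all clusters did.

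The promoters of 5 genes are shown because the set moved together and the CHR is the best known shared element of such genes, and they were chosen after the values were seen. Each stretch holds 200 bases before and 20 bases from the start of transcription on, as RefSeq places it on mouse build GRCm38.p6, with matches to the CHR words TTTGAA and TTCGAA and to the CCAAT box in capitals, on either strand. Top2a (chr11:99024170-99024389, minus strand), which had the largest difference in both strains, holds 4 CHR and 5 CCAAT words. Cdk1 (chr10:69352893-69353112, minus strand) holds 2 of each, Ccnb2 (chr9:70421535-70421754, minus strand) 2 and 3, and Cdc20 (chr4:118437324-118437543, minus strand) 1 and 2. Pttg1 (chr11:43425962-43426181, minus strand) holds no such word in these bases. Its values followed those of the other genes least, and whether the words bear on the values was not tested.
Top2a: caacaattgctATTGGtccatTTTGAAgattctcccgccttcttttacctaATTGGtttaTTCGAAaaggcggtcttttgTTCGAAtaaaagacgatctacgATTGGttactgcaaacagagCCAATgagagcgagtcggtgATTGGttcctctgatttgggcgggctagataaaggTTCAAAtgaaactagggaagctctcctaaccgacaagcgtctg
Cdk1: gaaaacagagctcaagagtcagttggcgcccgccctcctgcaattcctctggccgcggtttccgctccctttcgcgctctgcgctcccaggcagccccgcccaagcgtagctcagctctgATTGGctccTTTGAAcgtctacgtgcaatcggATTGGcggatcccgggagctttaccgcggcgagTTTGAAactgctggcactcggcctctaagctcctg
Ccnb2: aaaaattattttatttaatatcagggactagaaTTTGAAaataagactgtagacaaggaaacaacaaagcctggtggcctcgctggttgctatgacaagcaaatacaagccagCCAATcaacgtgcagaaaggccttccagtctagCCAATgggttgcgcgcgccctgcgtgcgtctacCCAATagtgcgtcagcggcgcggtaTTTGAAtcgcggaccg
Cdc20: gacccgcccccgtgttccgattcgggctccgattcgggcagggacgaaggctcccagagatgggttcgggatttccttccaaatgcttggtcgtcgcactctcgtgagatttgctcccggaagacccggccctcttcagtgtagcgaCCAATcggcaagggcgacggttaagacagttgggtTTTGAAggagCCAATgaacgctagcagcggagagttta
Pttg1: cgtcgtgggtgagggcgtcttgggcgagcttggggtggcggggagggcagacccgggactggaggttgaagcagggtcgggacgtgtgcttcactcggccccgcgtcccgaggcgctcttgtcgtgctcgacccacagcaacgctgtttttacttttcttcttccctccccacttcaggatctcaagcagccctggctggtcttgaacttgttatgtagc

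Over windows from 250 bases before to 50 bases past the start, 39 of the 45 genes had a RefSeq promoter. A CHR word stood in 29 of these 39 genes (74.4%), against 20.2% of 17492 protein-coding genes and 21.7% of all 27025 genes with a window. A CCAAT box (CCAAT or its complement) stood in 66.7%, against 42.3% of protein-coding genes, and both words stood in 61.5%, against 8.2%. E2F-type words were searched as TTCGCGC, as its variant TTGGCGC and as the further variant TTCCCGC, on both strands. They stood in 6 of the 39 genes (15.4%), against 11.8% of protein-coding genes. A match is a stretch of letters and not a measured site, and no word contains another, although the end bases of neighbours can be shared.

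The CHR words of the set lay close to the start. Of 42 CHR words in the 39 genes, 29 lay within 50 bases of a start on either side, a distance chosen after the positions were seen. RefSeq lists 2 starts each for Ect2 and Prc1, whose words are counted once, and a gene counts as holding a word where the window of any of its starts does. In all, 27 of the 39 genes (69.2%) held a CHR word there, against 5.1% of protein-coding genes. In the stretches above, the CHR word nearest the start begins 15 bases before it in Cdk1, 18 bases before it in Cdc20, 23 bases before it in Top2a and 4 bases past it in Ccnb2. The whole 300-base window of Pttg1 held no CHR, CCAAT or E2F-type word, and some further genes of the 39 held none of these words either. Nek2, Plk4 and Cenpe, which were called higher in both strains, were among the other genes with no CHR word in their windows. Ube2c, which was among the genes that followed the others least, held a CHR word and several CCAAT boxes.

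**Figure D2:**
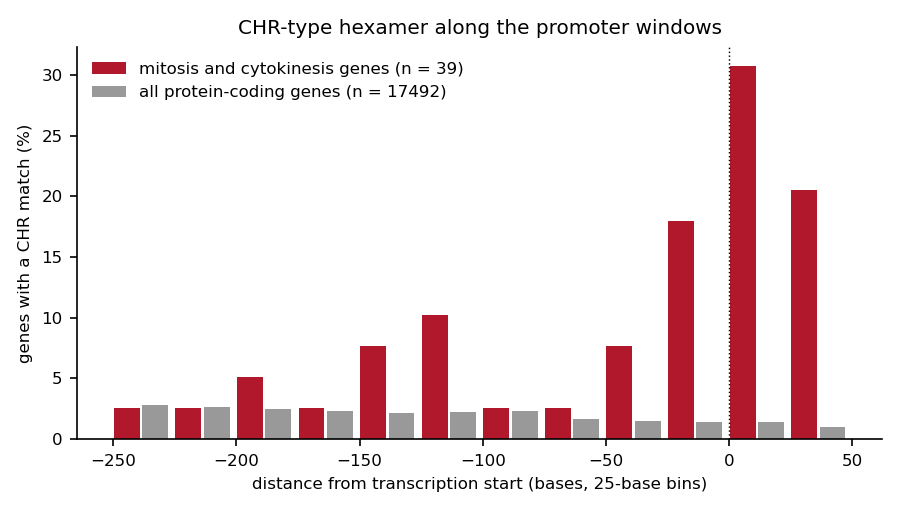
Share of genes (%) with a CHR word that begins in each 25-base bin around the transcription start, for the 39 mitosis and cytokinesis genes with a promoter (red) and all 17492 protein-coding genes (grey). The share peaks at 30.77% in the bin from 0 to 24 bases past the start, where 1.43% of protein-coding genes have a match.

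All 9 measured genes of mitotic entry were higher in both strains, with medians of 0.99 in BALB/cJ and 0.97 in C57BL/6J lungs. Ccna2 encodes cyclin A, which drives entry into mitosis. In BALB/cJ lungs it lay at 7.13, 8.05 and 9.09 (lowest, median and highest mouse) in Treated mice, against 6.00, 6.19 and 8.90 in Control mice. Only mouse633 among the Control mice reached the Treated range. The difference was 1.64 ± 0.25 (SE), or 3.12-fold (adjusted p = 0.000193), and 1.96 without mouse633 and mouse634. Its values in C57BL/6J lungs were 7.43, 8.26 and 9.19 in Treated mice, against 5.88, 6.41 and 7.51 in Control mice, and 10 of the 12 Treated mice lay above all Control mice. The difference was 1.65 ± 0.26, or 3.15-fold (adjusted p = 7.45e-05).

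Cdk1, the kinase that cyclins of the A and B types activate, lay at 5.64, 6.75 and 7.83 in BALB/cJ Treated mice, against 5.03, 5.37 and 7.60 in BALB/cJ Control mice (difference 1.30 ± 0.22, adjusted p = 0.000412). In C57BL/6J mice it lay at 5.88, 6.58 and 7.44 after Der p 1, against 5.08, 5.45 and 6.33 after PBS (1.17 ± 0.23, adjusted p = 0.000497). These differences correspond to 2.47-fold higher levels in BALB/cJ and 2.25-fold higher levels in C57BL/6J Treated mice. Plk1, the Polo-like kinase of mitotic entry and spindle assembly, differed by 0.99 ± 0.19 in BALB/cJ and by 1.19 ± 0.20 in C57BL/6J lungs. Of the C57BL/6J Treated mice, 11 of 12 lay above all Control mice for Plk1 (6.05, 7.03 and 7.71 in Treated, against 5.40, 5.74 and 6.28 in Control mice). A second, dim cluster of Plk1 was not called in either strain (-0.08 and 0.15).

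Nek2, a kinase that separates the centrosomes, had 5.92, 7.04 and 7.41 in BALB/cJ Treated mice, against 5.43, 5.73 and 7.07 in BALB/cJ Control mice (1.16 ± 0.19, adjusted p = 0.000272). Its C57BL/6J difference was 0.75 ± 0.19. Cdca3, first described in frog eggs as a trigger of mitotic entry, differed by 0.65 ± 0.16 in BALB/cJ and by 1.11 ± 0.17 in C57BL/6J lungs, and the strains were not separated after adjustment (-0.46, 95% interval -0.93 to 0.01, adjusted p = 0.462). In C57BL/6J its lowest Treated mouse (5.33) lay just above its highest Control mouse (5.30). The other genes of the group were Ccnb2 (cyclin B), Aurka (the centrosome's Aurora kinase), Plk4 (centriole duplication) and the kinase gene Melk, with differences of 0.70 to 1.04 in BALB/cJ and 0.69 to 0.97 in C57BL/6J lungs.

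Of the 8 genes of the spindle checkpoint and anaphase, 7 were higher in BALB/cJ and 6 in C57BL/6J lungs, with medians of 0.78 and 0.72. Bub1b encodes BubR1, a checkpoint protein that holds back the anaphase-promoting complex. It lay at 4.82, 5.69 and 6.72 in BALB/cJ Treated mice, against 4.60, 4.81 and 6.11 in BALB/cJ Control mice (0.86 ± 0.14, adjusted p = 0.000406). C57BL/6J Treated mice had it at 5.51, 6.01 and 6.37, against 4.99, 5.29 and 5.42 in C57BL/6J Control mice, with no overlap (0.67 ± 0.15, adjusted p = 0.00136). Mad2l1, its partner in the checkpoint, differed by 0.82 ± 0.22 and 0.77 ± 0.23, and Ttk, the kinase that starts checkpoint signalling, by 0.80 ± 0.18 and 0.79 ± 0.18 in BALB/cJ and C57BL/6J lungs. In BALB/cJ lungs the call of Mad2l1 ended when any of 12 mice was left out (adjusted p up to 0.0710, without mouse514).

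Bub1, the kinase that recruits the checkpoint to kinetochores, passed the test in BALB/cJ and not in C57BL/6J lungs. In the first strain it lay at 4.39, 5.66 and 6.68 in Treated mice, against 4.08, 4.29 and 6.55 in Control mice (0.94 ± 0.25, adjusted p = 0.0345). That call ended when any of 14 mice was left out (adjusted p up to 0.0793, without mouse624), and the difference was 1.21 without mouse633 and mouse634. Among C57BL/6J mice it lay at 4.80, 5.45 and 6.05 after Der p 1, against 4.11, 5.16 and 5.80 after PBS (0.59 ± 0.26, adjusted p = 0.106). It passed there in series 5 alone (0.96, adjusted p = 0.0390; the series is the leading digit of the mouse number), with each array's spread over clusters as a covariate (0.85, adjusted p = 0.0199) and, without mouse633 and mouse634, with the series as a covariate (0.49, adjusted p = 0.0227). The test of the difference between the strains gave 0.35 (95% interval -0.38 to 1.08, adjusted p = 0.671).

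Ube2c, the ubiquitin-conjugating enzyme of the anaphase-promoting complex, passed in C57BL/6J and not in BALB/cJ lungs. In BALB/cJ lungs it lay at 6.70, 7.13 and 7.62 in Treated mice, against 6.01, 6.74 and 7.69 in Control mice (0.42 ± 0.16, adjusted p = 0.183, and 0.55 with adjusted p = 0.0222 without mouse633 and mouse634). In C57BL/6J lungs it lay at 6.89, 7.23 and 8.32 in Treated mice, against 5.86, 6.69 and 7.03 in Control mice (0.90 ± 0.16, adjusted p = 0.000224). The strains' differences were not separated after adjustment (-0.48, 95% interval -0.93 to -0.03, adjusted p = 0.442). Cdc20, the activator of that complex, differed by 0.75 ± 0.17 and 0.74 ± 0.17, and Espl1, the separase that cuts the bond between sister chromatids, by 0.48 ± 0.11 and 0.71 ± 0.12 in BALB/cJ and C57BL/6J lungs.

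Pttg1 encodes securin, which keeps separase inactive until anaphase. In BALB/cJ lungs it lay at 6.20, 6.82 and 7.42 in Treated mice, against 5.77, 6.08 and 7.39 in Control mice. Each of the 14 Treated mice lay above the Control median, and the difference was 0.58 ± 0.14, or 1.49-fold (adjusted p = 0.0131), and 0.74 without mouse633 and mouse634. Its values in C57BL/6J lungs were 7.62, 7.96 and 8.35 in Treated mice, against 7.66, 8.15 and 8.78 in Control mice. Only 4 of the 12 Treated mice lay above the Control median, and the difference of -0.19 ± 0.14 was not called (adjusted p = 0.325). Among the 45 genes it was the single one with a difference below 0 in either strain.

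Pttg1 also differed between the strains, after Der p 1 and after PBS. All 14 BALB/cJ Treated mice (highest 7.42) lay below the lowest C57BL/6J Treated mouse (7.62), and the BALB/cJ minus C57BL/6J difference was -1.19 ± 0.13 (adjusted p = 3.35e-09). All 11 BALB/cJ Control mice (highest 7.39, mouse633) lay below the lowest C57BL/6J Control mouse (7.66), with a difference of -1.96 ± 0.15 (adjusted p = 5.91e-15). Ccnb2, plotted beside it, had Control medians of 6.44 in BALB/cJ and 6.53 in C57BL/6J mice.

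**Figure D3:**
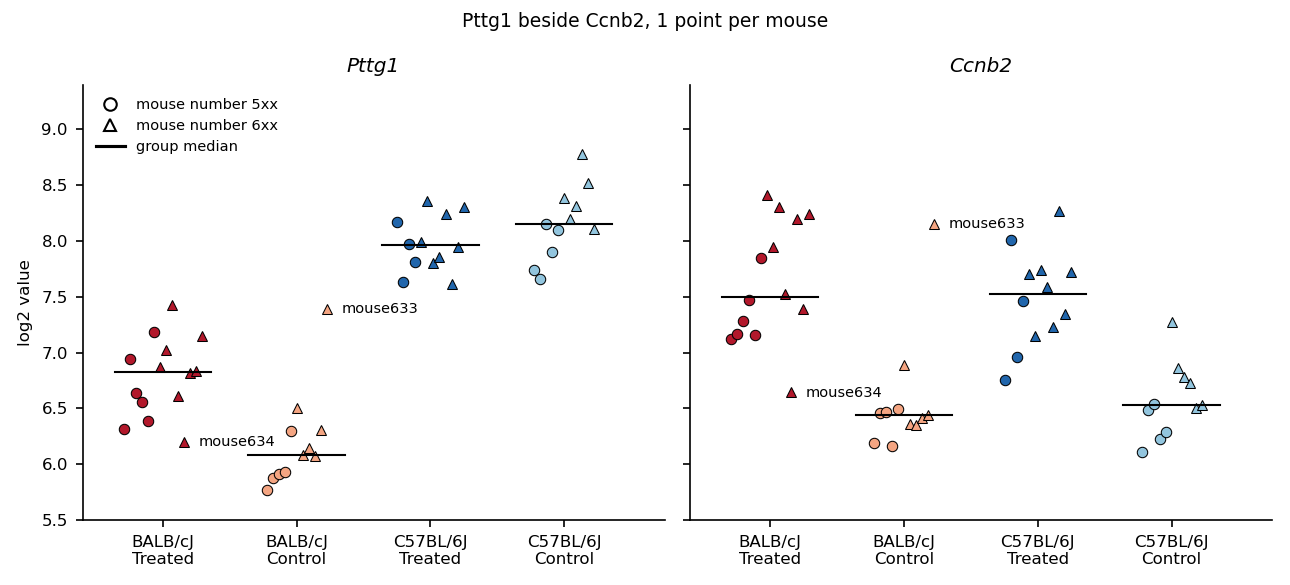
Log2 value of Pttg1 (left) and Ccnb2 (right) in each mouse, with the group median as a bar and the leading digit of the mouse number as the symbol. BALB/cJ mice of both groups lie below all C57BL/6J mice for Pttg1, whose C57BL/6J medians are 7.96 in Treated and 8.15 in Control mice, while Ccnb2 is higher in Treated mice of both strains.

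The 4 measured genes of the chromosomal passenger complex, which corrects faulty spindle attachments and guides cytokinesis, had medians of 0.69 in BALB/cJ lungs, where 3 were higher, and 0.97 in C57BL/6J lungs, where all 4 were. Aurkb, its kinase, lay at 6.09, 6.95 and 7.65 in BALB/cJ Treated mice, against 5.65, 5.88 and 7.23 in BALB/cJ Control mice (1.03 ± 0.17, adjusted p = 0.000311). C57BL/6J Treated mice had it at 6.50, 7.24 and 7.79, against 5.48, 5.89 and 6.45 in C57BL/6J Control mice (1.16 ± 0.17, adjusted p = 4.17e-05), and no mouse of either group overlapped the other there. Birc5, which encodes survivin, differed by 0.77 ± 0.21 in BALB/cJ and by 1.21 ± 0.22 in C57BL/6J lungs, and its BALB/cJ call ended when any of 14 mice was left out (adjusted p up to 0.0780, without mouse624). Cdca8, which encodes borealin, differed by 0.61 ± 0.14 in BALB/cJ and by 0.77 ± 0.14 in C57BL/6J lungs.

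Incenp, the scaffold of the complex, was called in C57BL/6J and not in BALB/cJ lungs, and the test between the strains gave -0.28 (95% interval -0.71 to 0.16, adjusted p = 0.582). It lay at 5.25, 5.99 and 6.71 in BALB/cJ Treated mice, against 5.11, 5.53 and 6.00 in BALB/cJ Control mice (0.51 ± 0.15, adjusted p = 0.0634). There it passed without mouse633 and mouse634 (0.61, adjusted p = 0.00862), and with all mice kept it passed when the number series was a covariate (0.52, adjusted p = 0.0331), with array spread as a covariate (0.0121), with mouse as a random effect (0.0156) and with array weights (0.00309). Among C57BL/6J mice it lay at 5.49, 6.34 and 7.04 after Der p 1, against 5.18, 5.41 and 6.28 after PBS (0.79 ± 0.16, adjusted p = 0.000531). Sgo1, the current symbol of the listed Sgol1 and the gene of shugoshin, which guards cohesion at centromeres, differed by 0.61 ± 0.14 in BALB/cJ (adjusted p = 0.0101) and by 0.81 ± 0.15 in C57BL/6J lungs (adjusted p = 0.000239), and is not counted among the 45.

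Of the 5 measured centromere and kinetochore genes, 4 were higher in BALB/cJ and 5 in C57BL/6J lungs, with medians of 0.85 and 1.11. Spc25, Nuf2 and Ndc80 encode subunits of the complex by which kinetochores grip microtubules. Spc25 lay at 5.86, 6.70 and 7.57 in BALB/cJ Treated mice, against 5.10, 5.45 and 7.51 in BALB/cJ Control mice (1.01 ± 0.23, adjusted p = 0.00929), and at 5.74, 6.65 and 8.05 in C57BL/6J Treated mice, against 4.78, 5.41 and 6.20 in C57BL/6J Control mice (1.31 ± 0.24, adjusted p = 0.000265). Nuf2 differed by 1.01 ± 0.21 and 1.23 ± 0.22, and Ndc80 by 0.85 ± 0.18 and 0.85 ± 0.19, in BALB/cJ and C57BL/6J lungs.

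Cenpe, the kinetochore's motor protein, differed by 0.81 ± 0.19 in BALB/cJ and by 1.11 ± 0.20 in C57BL/6J lungs. Cenpa, the histone variant that marks the centromere, lay at 6.22, 6.88 and 7.80 in BALB/cJ Treated mice, against 5.93, 6.19 and 7.52 in BALB/cJ Control mice. Each of the 14 Treated mice lay above the Control median, and the difference of 0.62 ± 0.19 was not called (adjusted p = 0.0667), although it was without mouse633 and mouse634 (0.78, adjusted p = 0.00362) and, with all mice, when the number series was a covariate (0.61, adjusted p = 0.0163). Cenpa in C57BL/6J lungs was higher by 0.80 ± 0.19 (adjusted p = 0.00287).

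Of the 5 measured genes of chromosome condensation, 2 were higher in BALB/cJ and 4 in C57BL/6J lungs (medians 0.60 and 0.71), the largest difference of each strain among them. Top2a, the topoisomerase that untangles sister chromatids, lay at 5.26, 7.51 and 8.69 in BALB/cJ Treated mice, against 4.79, 5.18 and 8.01 in BALB/cJ Control mice. All Treated mice lay above the Control median, and mouse633 was the highest Control mouse. The difference was 1.82 ± 0.31, or 3.53-fold (adjusted p = 0.000406), and 2.23 without mouse633 and mouse634. In C57BL/6J lungs it lay at 5.92, 7.39 and 8.38 in Treated mice, against 4.86, 5.29 and 6.62 in Control mice (1.84 ± 0.32, or 3.59-fold, adjusted p = 0.000151). Mki67, the antigen by which pathologists count dividing cells, lay at 4.09, 6.05 and 7.68 in BALB/cJ Treated mice, against 3.75, 4.49 and 6.48 in BALB/cJ Control mice (1.39 ± 0.31, adjusted p = 0.00542). Its values in C57BL/6J lungs were 4.09, 6.54 and 7.29 in Treated mice, against 3.63, 4.54 and 5.27 in Control mice (1.68 ± 0.32, adjusted p = 0.000308).

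The 3 measured condensin subunits had differences of 0.20 to 0.71. Smc2, an ATPase subunit, differed by 0.60 ± 0.20 in BALB/cJ (adjusted p = 0.117, 0.0202 without mouse633 and mouse634, and 0.0145 when the number series was a covariate) and by 0.71 ± 0.21 in C57BL/6J lungs (adjusted p = 0.0140). Ncaph, which links the ATPase heads, differed by 0.48 ± 0.14 in BALB/cJ (adjusted p = 0.0646, 0.00176 without mouse633 and mouse634, and 0.0235 when the number series was a covariate) and by 0.46 ± 0.15 in C57BL/6J lungs (adjusted p = 0.0263), where its call ended without mouse659 (adjusted p = 0.0564). Smc4, the other ATPase subunit, was called in neither strain. It lay at 6.50, 7.16 and 7.87 in BALB/cJ Treated mice, against 6.11, 6.83 and 7.59 in BALB/cJ Control mice (0.35 ± 0.16, adjusted p = 0.322), and at 6.83, 7.41 and 7.70 in C57BL/6J Treated mice, against 6.13, 7.23 and 7.84 in C57BL/6J Control mice (0.20 ± 0.16, adjusted p = 0.382). It passed in C57BL/6J lungs with array spread as a covariate (0.43, adjusted p = 0.0227), and in BALB/cJ lungs with the number series as a covariate once mouse633 and mouse634 were left out (0.43, adjusted p = 0.0167).

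All 7 genes of spindle motors and microtubule-binding proteins were higher in both strains, with medians of 0.80 in BALB/cJ and 0.89 in C57BL/6J lungs. Tpx2, which nucleates spindle microtubules and activates Aurora A, lay at 4.67, 6.12 and 7.20 in BALB/cJ Treated mice, against 4.44, 4.61 and 6.35 in BALB/cJ Control mice (1.29 ± 0.24, adjusted p = 0.000853). C57BL/6J Treated mice had it at 5.08, 6.45 and 7.37, against 4.11, 4.75 and 5.26 in C57BL/6J Control mice (1.45 ± 0.25, adjusted p = 0.000145), and 10 of 12 Treated mice lay above all Control mice. Kif11, the motor that pushes the spindle poles apart, differed by 1.18 ± 0.23 and 1.15 ± 0.24 in BALB/cJ and C57BL/6J lungs.

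Nusap1, a microtubule-binding protein, differed by 0.95 ± 0.23 in BALB/cJ and by 0.67 ± 0.24 in C57BL/6J lungs, where its adjusted p of 0.0458 passed narrowly and was above the threshold when any of 14 mice was left out (up to 0.0953, without mouse659). Kif2c, which takes microtubules apart at their ends, differed by 0.80 ± 0.16 in BALB/cJ and by 0.91 ± 0.17 in C57BL/6J lungs. The spindle motor Kif15 and the chromosome-bound motors Kif4 and Kif22 differed by 0.58 to 0.78 in BALB/cJ and by 0.69 to 0.89 in C57BL/6J lungs. For Kif22, 12 of the 14 BALB/cJ Treated mice lay above all Control mice, mouse633 included.

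All 7 cytokinesis genes were higher in both strains, with the highest role-group medians, 1.13 in BALB/cJ and 1.12 in C57BL/6J lungs. Prc1, which bundles the overlapping microtubules between the separating chromosomes, lay at 4.77, 6.41 and 7.36 in BALB/cJ Treated mice, against 3.96, 4.30 and 6.61 in BALB/cJ Control mice. Of the 11 Control mice, 8 lay below every Treated mouse. The difference was 1.67 ± 0.26, or 3.18-fold (adjusted p = 0.000254), and 1.98 without mouse633 and mouse634. Among C57BL/6J mice it lay at 4.995, 6.46 and 7.45 after Der p 1, against 4.02, 4.54 and 5.21 after PBS (1.60 ± 0.27, or 3.03-fold, adjusted p = 0.000143).

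Ect2, the exchange factor that activates RhoA at the cell's equator, lay at 6.21, 7.09 and 7.83 in BALB/cJ Treated mice, against 5.42, 5.65 and 7.71 in BALB/cJ Control mice (1.29 ± 0.22, adjusted p = 0.000406). Its C57BL/6J difference was 1.34 ± 0.23 (adjusted p = 0.000125). Anln, which encodes the scaffold protein anillin of the contractile ring, differed by 1.14 ± 0.22 in BALB/cJ and by 1.20 ± 0.23 in C57BL/6J lungs. Racgap1 and Kif23, the partners of the centralspindlin complex that recruits Ect2, differed by 1.13 ± 0.20 and 0.92 ± 0.16 in BALB/cJ and by 1.08 ± 0.21 and 1.12 ± 0.17 in C57BL/6J lungs. The midzone motors Kif20a and Kif20b differed by 1.07 and 0.75 in BALB/cJ and by 0.97 and 0.87 in C57BL/6J lungs.

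**Figure D4:**
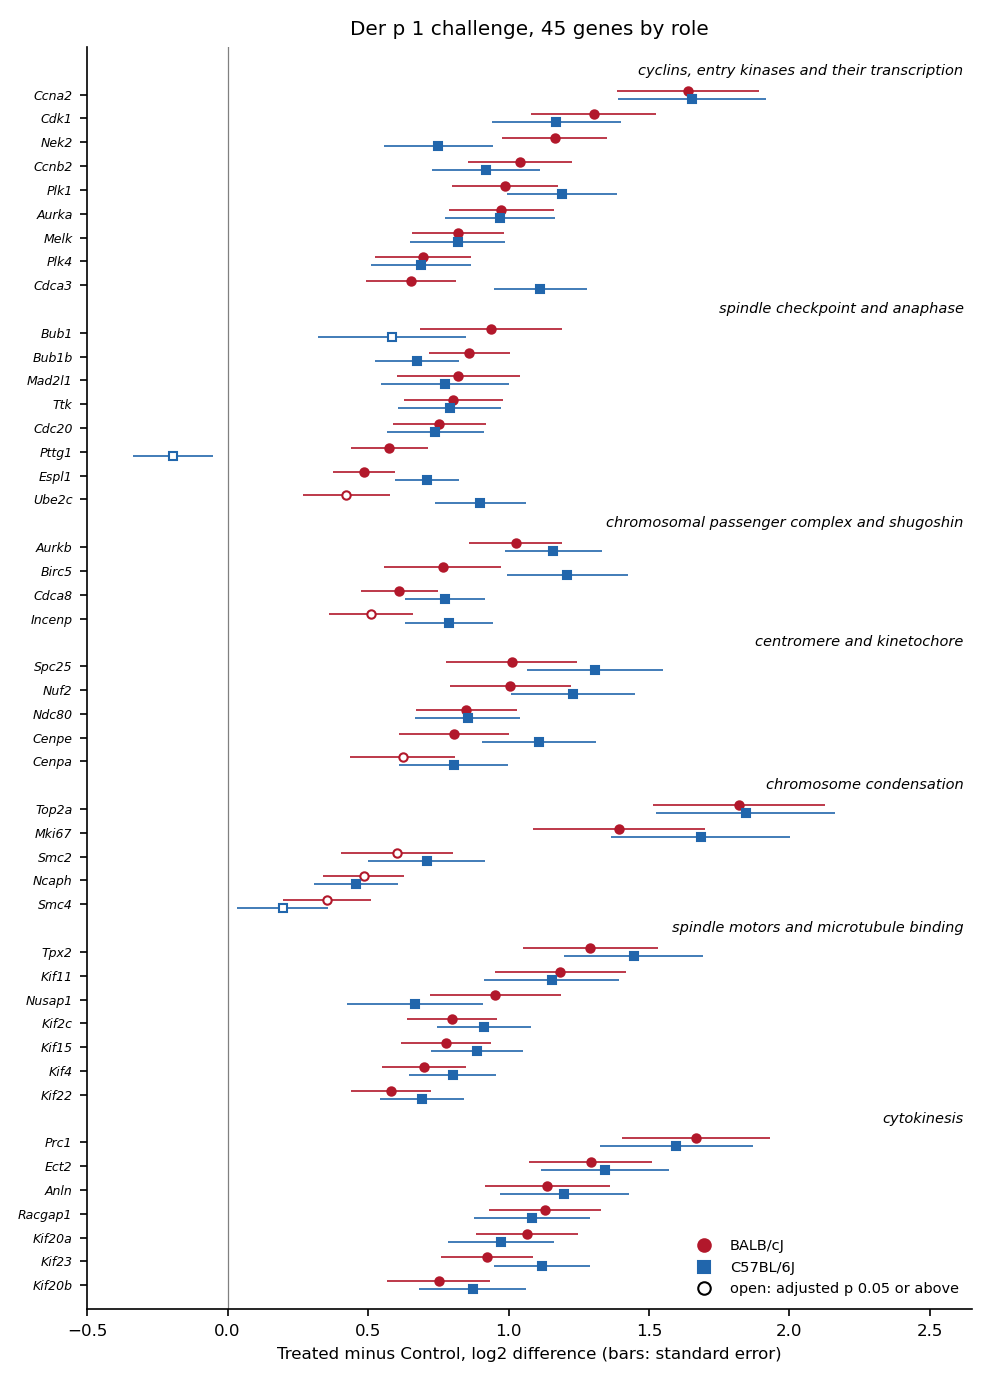
Difference between Treated and Control mice (log2, points) with its standard error (bars) for each of the 45 genes in BALB/cJ (circles) and C57BL/6J (squares) lungs, by role, filled where the adjusted p was under 0.05. Top2a lies furthest right in both strains, Pttg1 is the 1 gene left of 0, in C57BL/6J, and Smc4 is open in both.

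Whether the challenge response differed between the strains was tested for each gene as BALB/cJ minus C57BL/6J. By limma 0 of the 45 genes passed (2 of 16715 clusters did, 0.012%), and 2 had an unadjusted p under 0.05, Pttg1 and Ube2c. The 95% interval of the difference lay within 1 of 0 for 41 of the 45 genes, and its half-width ran from 0.32 to 0.89. Pttg1 had the largest value, 0.77 (interval 0.37 to 1.17, adjusted p = 0.402). It passed without mouse633 and mouse634 (0.93 ± 0.17, adjusted p = 0.0130, background 0.0179%) and without mouse633 alone (adjusted p = 0.0330). No other gene of the set passed without these mice.

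Between strains within a challenge group, BALB/cJ minus C57BL/6J, few of the genes differed. In Treated mice 2 of the 45 were lower in BALB/cJ and 0 higher, where 13.3% of all clusters were called and 6.87% were lower. These were Pttg1 and Cdca3, which lay at 4.77, 5.40 and 6.04 in BALB/cJ Treated mice, against 5.33, 6.00 and 6.75 in C57BL/6J Treated mice (-0.49 ± 0.16, adjusted p = 0.0298). The groups overlapped for Cdca3, and its call ended when any of mouse634, mouse636, mouse648, mouse659 and mouse661 was left out (adjusted p up to 0.0734). Which genes passed, and in which direction, changed with the setting. In series 6 alone without mouse633 and mouse634, 2817 of all 16715 clusters were called. That share was close to the share of the 45 genes called, so no result about the set is read from it. Pttg1 was lower in that fit and Cdca3 was not called (adjusted p = 0.193). Plk4, Bub1, Ttk, Smc2, Ncaph, Nusap1 and Kif20a were higher in BALB/cJ Treated mice there, by 0.49 to 0.66. Ncaph was also higher (0.35, adjusted p = 0.0180) without these mice when the series was a covariate. With array spread as a covariate Cdca3 was not called (adjusted p = 0.0749) and Smc4 was lower (-0.38, adjusted p = 0.0373). In Control mice Pttg1 alone differed, where 4.66% of all clusters were called and 2.76% were lower. Without mouse633 and mouse634 (4.6% called), Bub1b was also lower in BALB/cJ Control mice (-0.43, adjusted p = 0.0251).

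The mouse numbers begin with 5 or 6 in every group, which may mark separate cohorts, although the labels do not say so. The challenge difference was compared between these series in each strain, and 0 of the 45 genes passed in either (0 of 16715 clusters did, 0%). At an unadjusted p under 0.05, 0 of the 45 passed in BALB/cJ and 2 in C57BL/6J mice. In the same fit, the median difference of the 45 genes was 0.84 in series 5 and 0.86 in series 6 of BALB/cJ mice, and 1.02 in series 5 and 0.83 in series 6 of C57BL/6J mice. It had been 0.85 and 0.90 over both series. With the series as a covariate in the fit of all mice, 43 of the 45 genes were higher in BALB/cJ lungs, where Incenp, Cenpa, Smc2 and Ncaph joined the 39, and 42 in C57BL/6J lungs. More of all clusters were also called in C57BL/6J lungs in that fit than in the main fit, as given at the end.

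The values of the genes were correlated from mouse to mouse within groups, to a different extent in each. With the group means taken out, the median Pearson r over the 990 pairs of the 45 genes was 0.737 across 48 mice, against 0.0138 over all pairs of 14824 genes, a description since all pairs share the same arrays. Within groups the median r was 0.778 in BALB/cJ Treated, 0.849 in BALB/cJ Control, 0.805 in C57BL/6J Treated and 0.412 in C57BL/6J Control mice. The BALB/cJ values rested in part on the 2 mice that went against their labels. Without them the median r was 0.724 in BALB/cJ Treated and 0.246 in BALB/cJ Control mice, and 0.660 across the remaining 46 mice with group means taken out. Over all 48 mice, Melk (0.846), Kif20a (0.834) and Nuf2 (0.831) followed the other genes most closely, and Pttg1 (0.423), Smc4 (0.435) and Ube2c (0.540) least. With mouse633 and mouse634 left out the same 3 genes were closest, at 0.772 to 0.790, and Pttg1 (0.144), Smc4 (0.349) and Ube2c (0.423) least.

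The spread was between mice more than between arrays. Over the 7 mice with 3 arrays each, the median SD of repeat arrays was 0.183 for the 45 genes and 0.190 for all clusters. Between mice of a group it was 0.473 for the 45 genes and 0.294 for all clusters. Mouse633 and mouse634 are included and widen the spread of the 45 genes, and no value without them is given. Among C57BL/6J Treated mice, mouse659 was the highest for 33 of the 45 genes and mouse647 the lowest for 22, and among BALB/cJ Treated mice mouse624 was the highest for 22.

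**Figure D5:**
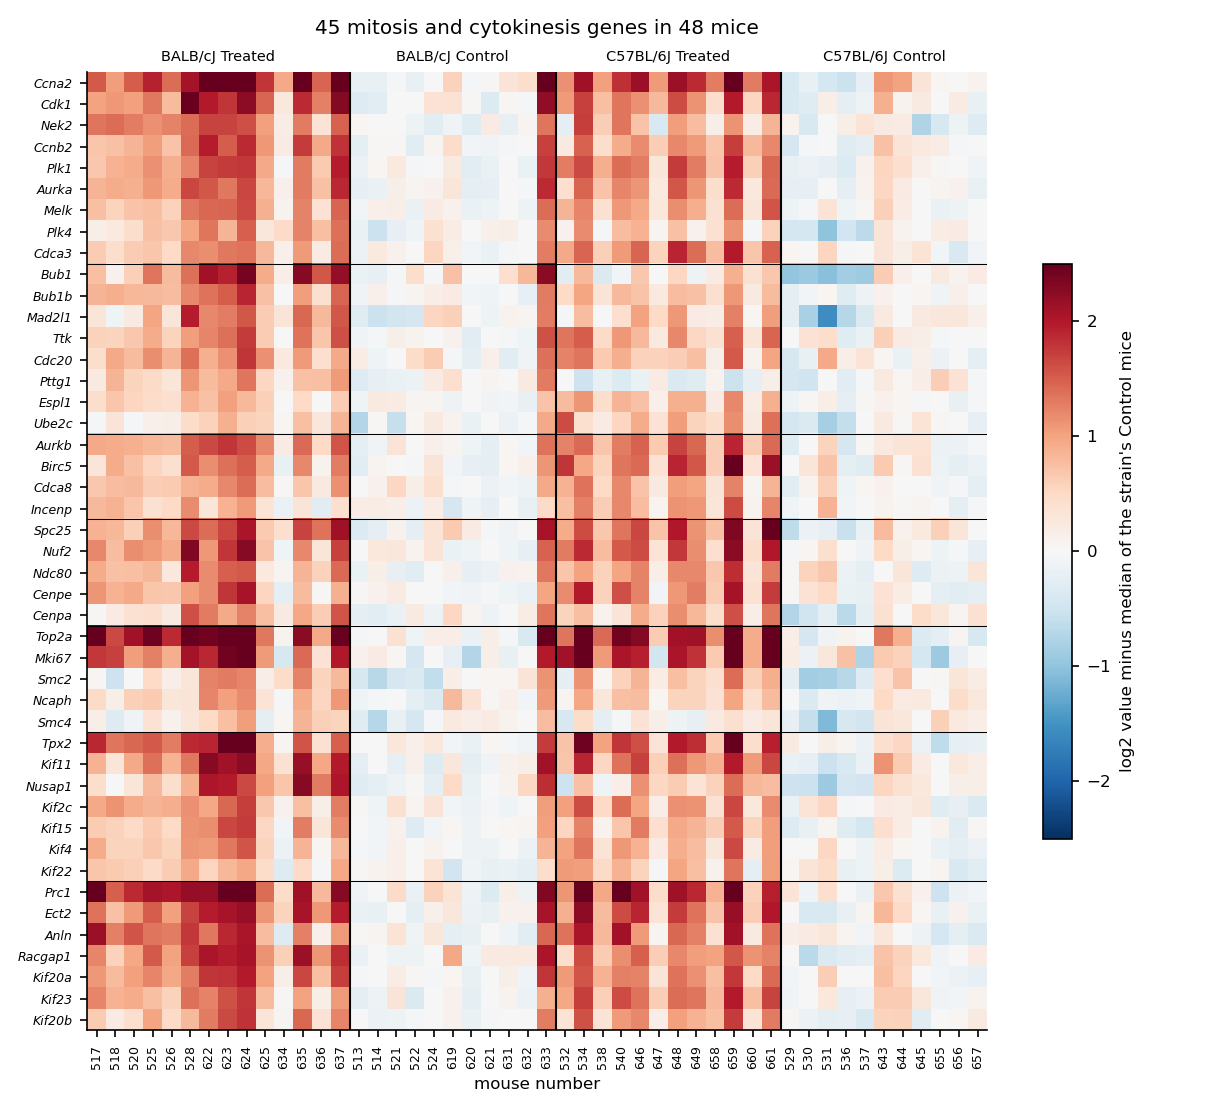
Log2 value of each of the 45 genes (rows, by role) in each of the 48 mice (columns, by group), as the difference from the median of that strain's Control mice, red where higher and blue where lower. Columns are red or pale as a whole, with mouse634 pale among the Treated mice and mouse633 red among the Control mice, and the Pttg1 row is pale or blue in C57BL/6J Treated mice.

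Other genes of the cell cycle were read from lists of the same kind. Of 44 other measured mitosis genes, 25 were higher and 0 lower in BALB/cJ lungs (median 0.59), and 34 were higher and 1 lower in C57BL/6J lungs (median 0.66). The BALB/cJ count was 29 (median 0.70) without mouse633 and mouse634. The largest in BALB/cJ were Stil (1.24 ± 0.21), Cep55 (1.18 ± 0.23) and Ckap2 (1.08 ± 0.21), and in C57BL/6J Cep55 (1.33 ± 0.23), Arhgap11a (1.23 ± 0.23) and Ckap2 (1.22 ± 0.22). Zwint, a kinetochore gene, was the lower one in C57BL/6J lungs (-0.39). Of 33 DNA replication genes, 12 were higher in BALB/cJ and 20 in C57BL/6J lungs and 0 lower in either (medians 0.40 and 0.42), led in both by Uhrf1 (1.06 ± 0.20 and 1.09 ± 0.21), which carries DNA methylation through replication. The BALB/cJ count was 21 without these mice (median 0.47).

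The regulators moved less. Of 17 genes of the E2F, MuvB and related complexes, 3 were higher and 0 lower in BALB/cJ lungs (median 0.07), where E2f7 (0.55), E2f8 (0.51) and Mybl1 (0.45) passed. Among C57BL/6J mice, 6 were higher and 1 lower (median 0.08), led by E2f8 (0.91), E2f7 (0.88) and Mybl2 (0.51), which encodes the B-Myb that joins MuvB, with Tfdp2 lower (-0.39). E2f7 and E2f8 encode E2F proteins that repress transcription. Of 9 early cyclin and kinase genes, 2 were higher in BALB/cJ and 4 in C57BL/6J lungs, among them the E-type cyclins Ccne1 (0.70 and 0.76) and Ccne2 (0.95 and 0.75). Of 6 inhibitors of cyclin-dependent kinases, 0 passed by limma in either strain, and 1 in BALB/cJ and 3 in C57BL/6J lungs had an unadjusted p under 0.05. Leaving out these mice, the BALB/cJ counts were 3 regulators, 3 early cyclin and kinase genes and 0 inhibitors (2 at an unadjusted p under 0.05).

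Markers of cells that the lobe could hold are given beside the set, and their part in its rise was not tested. Of 12 macrophage and monocyte genes, 4 were higher and 0 lower in BALB/cJ (median 0.58), and 5 were higher and 1 lower in C57BL/6J lungs (median 0.42). The complement genes C1qa, C1qb and C1qc and the receptor gene Mrc1 were called higher in both strains. Siglec1 was higher and Mertk lower in C57BL/6J lungs only. Of 6 eosinophil genes, 1 was higher in BALB/cJ and 4 in C57BL/6J lungs, and of 11 T cell genes 1 and 5. The BALB/cJ eosinophil call was Rnase2a alone (3.69). Ccr3 (0.87), Prg2 (0.55), Il5ra (0.12), Epx (0.05) and Siglecf (-0.04) were not called there. In C57BL/6J lungs Rnase2a (3.81), Ccr3 (2.11), Prg2 (1.40) and Il5ra (0.56) were called. Rnase2a thus had the largest difference of the eosinophil list in both strains. Without mouse633 and mouse634 the BALB/cJ counts were 6 macrophage and monocyte genes, 1 eosinophil gene and 2 T cell genes. The mean of the macrophage list was 7.33 to 8.68 in BALB/cJ Treated and 7.10 to 8.37 in BALB/cJ Control mice, and 6.86 to 8.64 in C57BL/6J Treated and 7.01 to 7.89 in C57BL/6J Control mice. The mean of the eosinophil list was 4.73 to 7.17 in BALB/cJ Treated and 4.62 to 7.05 in BALB/cJ Control mice, and 5.03 to 7.82 in C57BL/6J Treated and 4.17 to 5.71 in C57BL/6J Control mice. Mouse633 alone set the BALB/cJ Control maxima of both lists, which without it were 7.56 for the macrophage and 5.25 for the eosinophil list. That of the T cell list was 5.58 to 6.76 in BALB/cJ Treated and 5.50 to 6.45 in BALB/cJ Control mice, and 5.81 to 6.78 in C57BL/6J Treated and 5.48 to 6.21 in C57BL/6J Control mice.

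The fibroblast list moved in both directions. Of its 8 genes, 3 were higher in both strains, the collagen genes Col1a1 (1.39 in BALB/cJ and 1.22 in C57BL/6J lungs), Col3a1 (1.16 and 0.80) and Col1a2 (0.95 and 0.81). Dcn (-1.31), which encodes the matrix protein decorin, and the receptor gene Pdgfrb (-0.52) were lower in C57BL/6J lungs. The mean of the list was 9.11 to 9.84 in BALB/cJ Treated and 8.92 to 9.79 in BALB/cJ Control mice (8.92 to 9.30 without mouse633), and 8.65 to 9.49 in C57BL/6J Treated and 8.72 to 9.47 in C57BL/6J Control mice. Of 4 erythroid genes, 0 passed by limma in BALB/cJ lungs (0 at an unadjusted p under 0.05), and in C57BL/6J lungs Epb42 was higher (0.30) and Alas2 lower (-0.82). The mean of the erythroid list was 5.75 to 6.97 in BALB/cJ Treated and 6.48 to 7.12 in BALB/cJ Control mice, and 5.97 to 6.84 in C57BL/6J Treated and 6.17 to 6.85 in C57BL/6J Control mice.

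Across 46 mice, without mouse633 and mouse634 and with group means taken out, the mean of the 45 genes had an r of 0.658 with the macrophage list, 0.573 with the eosinophil list, 0.475 with the T cell list, -0.519 with the endothelial list, -0.511 with the erythroid list and -0.111 with the fibroblast list. These lists are a selection. Values for the thymocyte, B cell, plasma cell, neutrophil, airway and alveolar lists are not given, so no ranking among lists is read from them. These correlations are descriptions, over lists measured on the same arrays, and they differed in size between groups of 10 to 13 mice. Means of the number series were not taken out, so differences between the series enter these values. For the macrophage list r was 0.926 in BALB/cJ Treated, 0.771 in BALB/cJ Control, 0.459 in C57BL/6J Treated and 0.459 in C57BL/6J Control mice. For the T cell list it was 0.717 in BALB/cJ Treated, 0.470 in BALB/cJ Control, 0.253 in C57BL/6J Treated and 0.458 in C57BL/6J Control mice. The T cell mean was 5.58 to 6.06 in BALB/cJ Treated mice of series 5, and 6.14 to 6.76 in those of series 6 without mouse634. The eosinophil list had values of 0.448 to 0.674 in the C57BL/6J and 0.619 to 0.681 in the BALB/cJ groups, and the endothelial list of -0.673 to -0.293 over all 4. For the erythroid list r was -0.601 in BALB/cJ Treated, 0.338 in BALB/cJ Control, -0.656 in C57BL/6J Treated and -0.383 in C57BL/6J Control mice.

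Of 5 thymocyte genes, 0 passed by limma in either strain (0 and 1 at an unadjusted p under 0.05), and the medians of Rag2 and Dntt, which only developing lymphocytes need, lay at 2.78 to 3.05 and 3.58 to 3.70 over the 4 groups, near the low end of the arrays' values. Of 8 B and germinal centre cell genes, 0 were called in either strain (1 and 2 at an unadjusted p under 0.05). Of 8 endothelial genes, 1 was lower in BALB/cJ (2 without mouse633 and mouse634) and 4 in C57BL/6J lungs. Of 6 plasma cell, 10 neutrophil, 8 airway and 10 alveolar epithelial genes, Sftpd of the alveolar list passed in BALB/cJ lungs (0.37). In C57BL/6J lungs Irf4 (0.81) and Derl3 (0.49) of the plasma cell list, Retnlg (1.66) of the neutrophil list and Scgb1a1 (0.29) of the airway list were higher, and Prdm1 (-0.37), Scgb3a2 (-0.73) and Hopx (-0.47) lower.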

How the data were processed

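Per the labels, the authors summarised the arrays by RMA over core exons in Partek and deposited log2 expression values, 1 per transcript cluster and array; the Partek version, genome build and scan order are not given in the sources used here. Values ran from 1.27 to 13.8 (array medians 6.39 to 6.62). Of 16715 clusters, 14959 carry 1 gene symbol in the platform annotation, 1016 several and 740 none; a gene is its brightest cluster.

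Repeat arrays of a mouse were averaged, so n counts mice, and nothing in the labels links mice by litter or cage. limma 3.58.1 (R 4.3.3) was fitted with 1 mean per group over all 48 mice, and p was adjusted by Benjamini-Hochberg over all clusters (threshold 0.05). On data simulated like the BALB/cJ comparison (16715 clusters), 69% of changes of 0.5 and 98% of changes of 1 (log2) were called. The changes were placed in 200 randomly drawn clusters with independent noise, and 10 unchanged clusters were called. The 45 genes varied more between mice than all clusters (median SD 0.473 against 0.294) and were correlated. These rates therefore do not carry over to them.

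The genes, lists and tests were chosen with earlier results of these data known. Named genes were the 3 largest called differences of each role group in each strain and every gene not called in a challenge comparison. Every gene called in a strain comparison was named as well. In the other lists only some of the called genes are named. Remaining members of the set are given by their values. The check of the CHR words used RefSeq promoters of GRCm38.p6. Alternatives were a repeated quantile normalization, median centring, a mouse's first array, mouse as a random effect, removal of dim clusters, another prior, array weights, the compared groups alone, the number series or array spread as a covariate, each series alone, averaged clusters per gene, and fits without single mice or pairs; their effect is given at the end. The number of arrays limits the precision, and no depth applies.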

Additional observations from a re-analysis of the deposited data

How the results depend on the processing

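The 45 genes kept their direction as a group under every alternative run, and 1 gene was called lower after challenge in 1 of them: Pttg1 in C57BL/6J mice (-0.37, adjusted p = 0.0412), in series 6 alone without mouse633 and mouse634. The count of higher genes in BALB/cJ lungs was 36 to 44 when each mouse was left out (36 without mouse513, 44 without mouse633), and the median 0.79 to 0.98. In C57BL/6J lungs it was 40 to 42, and the median 0.85 to 0.95. Without the dimmest 50% of clusters only 9 of the genes were tested, and 6 and 7 of them were called in BALB/cJ and C57BL/6J lungs. BALB/cJ mice of series 6 by themselves gave 0 genes with limma. The BALB/cJ count of called genes was 43 in that series without mouse633 and mouse634, and 27 in series 5 alone. In C57BL/6J mice 37 passed in series 5 alone and 35 in series 6 alone. Counts over all clusters are given below for each BALB/cJ series alone and for C57BL/6J series 5 alone. For the other fits in this paragraph they are not given, and no result about the set is read from the counts of those fits.

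The strain difference of the response counted 1 gene, Pttg1, in place of 0 with array weights, without mouse633 and mouse634, with the number series as a covariate besides, and in series 6 alone without these mice, and 0 to 1 over the leave-one-out fits. In Treated mice the strain comparison counted 1 gene after quantile normalization, without the dimmest 50% of clusters, with the compared groups only, in series 5 alone and in series 6 alone. It counted 8 in series 6 without mouse633 and mouse634 (7 higher and 1 lower in BALB/cJ), close to the share over all clusters (2817 of 16715 called). Over the leave-one-out fits it counted 1 to 2. In Control mice the strain comparison counted 3 with array weights and 2 without mouse633 and mouse634 (4.6% of all clusters called). It counted 2 with the number series as a covariate besides, 2 in series 6 alone without them, and 1 in every leave-one-out fit. The comparisons of the number series stayed at 0 in every fit. The settings that join a number series, as a covariate or alone, with leaving out mouse633 and mouse634, and the one without mouse532, were chosen after seeing the data. Where no share over all clusters is given for a fit, no result about the set is read from its count. The cause of these changes was not tested.

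Over all clusters the BALB/cJ count of 323 was 1361 with array weights, 809 without mouse633 and mouse634, and 133 and 0 in series 5 and series 6 alone. The C57BL/6J count of 3146 was 7035 with array weights, 5480 with the number series as a covariate and 305 in series 5 alone. Signal over background limits the dim genes: 36 of the 45 lay below the median brightness of all clusters, and 9 below its lowest 25%. No paired analysis was possible because a mouse belongs to a single group and no label pairs mice across groups.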

Other observations

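Clca1, a gene of mucous airway cells, lay at 10.1 to 12.7 in the C57BL/6J Treated mice, and the C57BL/6J Control mice differed among themselves. It lay at 6.83 to 9.82 in the 5 Control mice of number series 5, whose means of the 45 mitosis genes were 5.11 to 5.34. In series 6, Clca1 and the mean of the 45 genes were 10.6 and 5.80 in mouse643, 12.7 and 5.59 in mouse644, 10.9 and 5.40 in mouse645, 10.9 and 5.29 in mouse655, 7.73 and 5.32 in mouse656, and 5.96 and 5.29 in mouse657.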
